A study of Mus musculus with 4 samples.

Results

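The genes described are the collagen-modifying enzymes P4ha1, P4ha2, Plod1, Plod2, Plod3, Loxl2 and Loxl3, in mouse T helper 17 (Th17) cells with and without PRAK, a kinase downstream of p38 whose gene is Mapkapk5. They were taken by gene symbol and are 7 of the 17921 genes of the deposited expression table. The set was proposed with the difference between the genotypes in these 4 libraries already known. That difference is therefore given for the 7 genes as a description, without p-values. RNA was sequenced from 2 PRAK KO and 2 wild-type (WT) mice, with 1 library per mouse, called KO 1, KO 2, WT 1 and WT 2 after the mouse numbers in the labels. In both genotypes naive CD4+ T cells were enriched and kept in Th17-polarising culture for 72 h, and the whole culture was used for RNA, with no sort after culture named. The strain, age and sex of the mice and the way the gene was disrupted were not given in the sources used here.

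Collagen chains are modified in the endoplasmic reticulum before they fold into a triple helix. Prolyl 4-hydroxylase, a tetramer of alpha subunits (P4HA) and the beta subunit P4HB, hydroxylates proline residues and so stabilises the helix, while the lysyl hydroxylases (PLOD) hydroxylate lysine residues that later carry sugars and cross-links. Both are dioxygenases that need oxygen, iron, 2-oxoglutarate and ascorbate. The lysyl oxidase-like enzymes LOXL2 and LOXL3 are copper amine oxidases that act outside the cell on lysine residues to start cross-links, and both also have reported roles in the nucleus. P4ha1, P4ha2, Plod1, Plod2 and Loxl2 are textbook targets of the hypoxia-inducible factors (HIF). Fibroblasts, not T cells, are the classical producers of collagen.

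Promoter windows were available for P4ha1, P4ha2, Plod1 and Plod3, from RefSeq on build GRCm38.p6. They were searched on both strands for ACGTG and GCGTG, the letters at the core of the hypoxia response element that HIF recognises. The windows of 3 genes are shown to set the P4ha1 and P4ha2 starts beside that of Plod1, whose level differed little between the genotypes. Each is read 5′ to 3′ on the gene's own strand and ends before the first annotated base of the gene, and capitals mark the matches on either strand. They lie at chr10:59323046-59323196 (plus strand), chr11:54100674-54100923 (plus strand) and chr4:147936777-147937026 (minus strand).
P4ha1: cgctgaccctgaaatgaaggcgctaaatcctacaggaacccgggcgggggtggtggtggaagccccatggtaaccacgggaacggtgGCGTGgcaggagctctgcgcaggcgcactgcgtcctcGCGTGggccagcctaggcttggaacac
P4ha2: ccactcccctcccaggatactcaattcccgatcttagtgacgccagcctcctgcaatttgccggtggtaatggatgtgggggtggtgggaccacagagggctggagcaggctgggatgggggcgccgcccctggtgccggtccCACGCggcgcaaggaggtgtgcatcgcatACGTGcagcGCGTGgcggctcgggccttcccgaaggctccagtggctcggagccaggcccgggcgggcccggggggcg
Plod1: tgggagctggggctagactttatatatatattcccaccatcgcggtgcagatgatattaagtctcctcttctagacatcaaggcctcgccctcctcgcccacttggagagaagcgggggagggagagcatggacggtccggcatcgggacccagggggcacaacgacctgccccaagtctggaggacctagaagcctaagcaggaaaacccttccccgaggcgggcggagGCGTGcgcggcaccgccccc
The P4ha1 stretch held 2 matches, both GCGTG, 163 and 126 bases before the start site of its window. It covers 151 bases, and the other 2 stretches 250, because the start site used for the P4ha1 window lies inside the annotated gene. Another P4ha1 match, the opposite-strand form of ACGTG at 16 bases before that start site, falls within the annotated gene and is not shown. The P4ha2 stretch held 3, the opposite-strand form of GCGTG at 107 bases, ACGTG at 78 bases and GCGTG at 69 bases before the start. Plod1 held 1, GCGTG at 20 bases before the start, and the Plod3 window, which runs over an exon of the opposite-strand gene Znhit1 and is not shown, held 4. None of these matches lay in the palindrome CACGTG. At least 1 match of either motif was present in the 250 bases before the start of all 4 genes, and in 55.0% of the 12967 windows of genes tested. There was no window for Plod2, Loxl2 or Loxl3. The matches are letters in a sequence, not measured binding, and nothing about HIF is read from them.

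Total expected counts lay between 19418012 and 20125124 per library. Pearson r across genes, which are not independent replicates, was 0.992 for the WT pair and 0.974 for the KO pair. Mapkapk5 stood at 35.6 and 38.4 CPM (read counts scaled to one library size with TMM factors) in WT and at 20.04 and 21.6 in KO, so it was lower but not absent in cells labelled KO (adjusted p = 0.0194 by the quasi-likelihood test of edgeR, adjusted by Benjamini-Hochberg over all genes, 0.103 without WT 1 and 0.188 without WT 2). Of 12 T cell and Th17 markers all were detected and tested, 1 rose (Ccr6, log2 fold change 1.12, adjusted p = 0.00963) and 1 fell (Il23r, -1.77, adjusted p = 0.0390, and 0.0943 without WT 1, 0.103 without WT 2 or 0.0523 with limma on log2(TPM + 1)). Among defining fibroblast markers, Col3a1 was at 0 in all 4 libraries and Col1a2 and Dcn were at 0 in both WT libraries and at most 0.145 CPM in KO. The summed level of the 11 fibroblast markers in the table was 18.04 to 18.97 TPM (a level per transcript length, scaled to the same sum in each library) in WT and 21.8 to 26.6 in KO, most of it from Lum and Fbln1. Of its 4 tested genes 1 fell (Col1a1, described with the collagen chains) and 0 rose. Lum had 146 and 139 expected counts in WT and 362 and 207 in KO (log2 fold change 0.91, not past the threshold). Fbln1 differed between the KO libraries, with 3.88 TPM in KO 1 and 16.17 in KO 2. Among markers not tested, Postn had 7 and 10 expected counts in WT and 0 in both KO libraries. Fap went the other way, with 1 and 1 in WT and 5 and 8 in KO. The summed level of the 5 endothelial markers in the table was 55.9 to 58.6 TPM in WT and 28.6 to 30.6 in KO. Most of it came from Pecam1, an adhesion receptor gene that leukocytes also express (log2 fold change -1.35, adjusted p = 0.00415). Egfl7, the other endothelial marker tested, did not pass, at 0.04 on the log2 scale. Its libraries overlapped, with 7.69 TPM for WT 1, 8.16 for WT 2, 10.04 for KO 1 and 7.52 for KO 2. Cdh5, Kdr and Tek had at most 5 expected counts in any library. Of 11 myeloid markers tested 6 rose in KO cells and 0 fell, and the summed level of the 12 in the table was 82.2 to 107.7 TPM in WT and 182 to 387 in KO, with Fcgr1 near 0 throughout. The sums of B cell markers (21.2 to 56.2 TPM in WT, 82.1 to 87.6 in KO) and of CD8 T and NK markers (123 to 258 in WT, 480.0 to 527 in KO) were also higher in KO. Of 4 B cell markers tested 1 rose (Ms4a1) and 0 fell. Of 6 CD8 T and NK markers tested 1 rose (Nkg7) and 0 fell, and Cd8a and Cd8b1 did not pass. The values of Klrd1, Gzma and Prf1 overlapped between the genotypes. The part of these cell types in the values of the 7 enzyme genes was not tested. In such bulk samples fewer cells of a type and less RNA per cell cannot be told apart.

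Both prolyl 4-hydroxylase alpha subunit genes were lower in KO cells. P4ha1 encodes the main catalytic subunit (gene ID 18451, chromosome 10, 59323197 to 59373304, GRCm38.p6, plus strand). It measured 224 and 219 CPM in libraries WT 1 and WT 2, then 108 and 88.6 in KO 1 and KO 2. Both KO values lay well below both WT values, and the KO mice differed more from each other than the WT mice did. The means were 221 ± 3.52 CPM in WT and 98.1 ± 13.5 in KO (SD, n = 2 each), and the fitted log2 fold change was -1.17 ± 0.14 (SE), or 2.25 times more in WT. P4ha2 encodes the second catalytic subunit (gene ID 18452, chromosome 11, 54100924 to 54131668, plus strand). It measured 37.1 and 44.3 CPM in libraries WT 1 and WT 2, then 4.21 and 4.97 in KO 1 and KO 2. The KO libraries were close together and far under either WT library. The means were 40.7 ± 5.10 CPM in WT and 4.59 ± 0.537 in KO (SD, n = 2 each). The fitted log2 fold change, KO over WT, was -3.15 ± 0.19 (SE), or 8.85 times more in WT. Ranked from the lowest log2 fold change up, P4ha2 was number 120 and P4ha1 number 771 of the 12680 genes tested.

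The lysyl hydroxylase genes split. Plod2 encodes the enzyme that hydroxylates lysines in the collagen telopeptides (gene ID 26432, chromosome 9, 92539636 to 92608428, plus strand). It measured 114 and 119.7 CPM in libraries WT 1 and WT 2, then 47.8 and 41.7 in KO 1 and KO 2. The genotypes were far apart beside the spread within each, the means being 117 ± 4.16 CPM for WT and 44.7 ± 4.36 for KO (SD, n = 2 each). The fitted log2 fold change was -1.38 ± 0.13 (SE), or 2.61 times more in WT. Plod3 encodes a hydroxylase that also transfers sugars to collagen (gene ID 26433, chromosome 5, 136987019 to 136996646, plus strand). It measured 73.0 and 69.9 CPM in libraries WT 1 and WT 2, then 60.2 and 51.4 in KO 1 and KO 2. The KO values were the lower ones, but the log2 fold change was small, -0.36 ± 0.13 (SE), and did not pass the threshold. Plod1 encodes the hydroxylase of helical lysines (gene ID 18822, chromosome 4, 147909753 to 147936776, minus strand). It measured 8.92 and 10.4 CPM in libraries WT 1 and WT 2, then 12.6 and 10.4 in KO 1 and KO 2. WT 2 and KO 2 were nearly equal, and the log2 fold change of 0.25 ± 0.21 (SE) was about as large as its error. Plod3 overlaps Znhit1 on the opposite strand. Its expected counts were not whole numbers in any library, whereas those of P4ha1, P4ha2, Plod1 and Plod2 were whole in all 4. Strand handling was not given in the sources used here, so that reads of Plod3 and Znhit1 may not have been told apart.

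The lysyl oxidase-like genes were barely expressed. Loxl2 (gene ID 94352, chromosome 14, 69608692 to 69695834, plus strand) measured 1.45 and 1.77 CPM in libraries WT 1 and WT 2, then 2.74 and 2.44 in KO 1 and KO 2. Both KO values were above both WT values, with a log2 fold change of 0.69 ± 0.33 (SE) that did not pass the threshold. Loxl3 (gene ID 16950, chromosome 6, 83034205 to 83052566, plus strand) measured 1.13 and 1.30 CPM in libraries WT 1 and WT 2, then 0.894 and 2.11 in KO 1 and KO 2. Here the genotypes overlapped, since KO 1 was the lowest library and KO 2 the highest, and the log2 fold change of 0.28 ± 0.52 (SE) became 0.78 without KO 1 and -0.48 without KO 2. The expected counts were 28.31 to 56.61 for Loxl2 and 18.47 to 42.5 for Loxl3, none of them whole, and both genes overlap others, among them Gm27177 and Htra2 on the opposite strand. No difference of either gene was detectable at this depth with 2 mice per genotype.

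**Figure D1:**
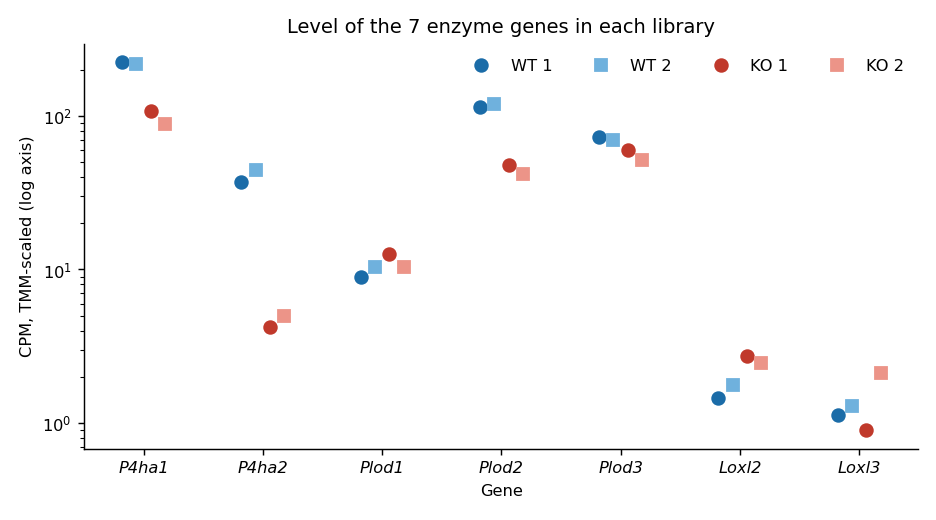
Level of each of the 7 genes in CPM with TMM scaling (vertical log axis), with 1 point per library, blue for WT and red for KO. P4ha1, P4ha2 and Plod2 show both KO points well under both WT points, P4ha2 by the widest gap, while the points of Plod1, Loxl2 and Loxl3 lie close together or mixed.

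All 7 genes passed the filter on low counts. In the fit over all genes 3 of them, P4ha1, P4ha2 and Plod2, were past the adjusted p of 0.05 and lower in KO, where 8.23% of all genes tested were, and 0 were higher, where 5.14% were. The genotypes did not overlap for 6 of the 7, where 63.0% of all genes tested did not overlap. Because this contrast was known when the genes were chosen, nothing is read from these shares or calls. The median log2 fold change was -0.36 over the 7 genes and 0.02 over all genes tested. The same 3 genes were past the threshold without any 1 of the 4 libraries, and Plod3 joined them, at a log2 fold change of -0.47, when KO 1 was left out. The range over those 4 fits was -1.32 to -1.04 for P4ha1, -3.27 to -3.01 for P4ha2 and -1.48 to -1.29 for Plod2. Fits without 1 library leave a genotype with a single sample, which is then assumed to vary like the other group.

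**Figure D2:**
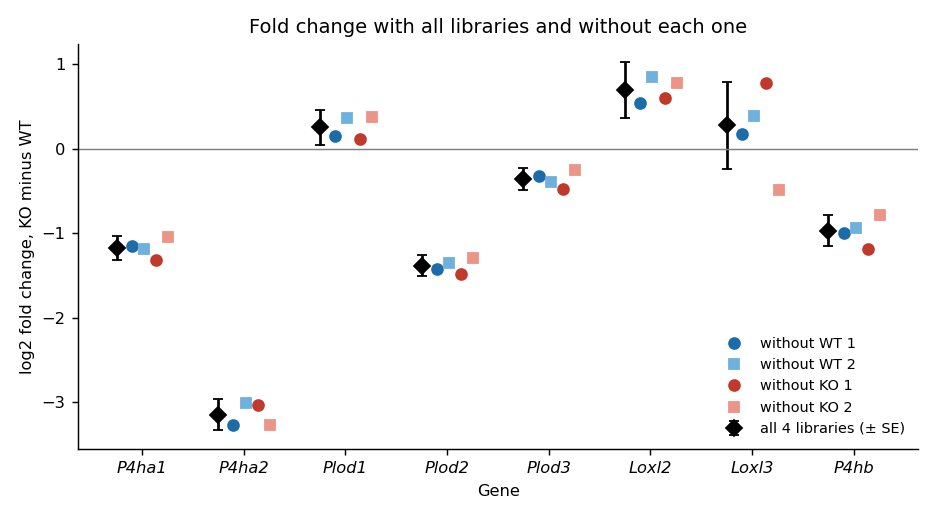
Log2 fold change of KO against WT for the 7 genes and P4hb, as black diamonds with SE for all 4 libraries and as coloured points for the fits without 1 library. The points of P4ha1, P4ha2 and Plod2 stay below -1 in every fit, and those of Loxl3 fall on both sides of 0.

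Levels of different genes were compared on the TPM scale, which is per transcript length. In both WT libraries the order from the highest was P4ha1, Plod2, Plod3, P4ha2 and Plod1, with Loxl2 and Loxl3 last and not apart beyond their spread. In both KO libraries it was P4ha1, Plod3, Plod2, Plod1 and P4ha2, again followed by Loxl2 and Loxl3. So Plod2 and Plod3 changed places, as did P4ha2 and Plod1. P4ha1 measured 134.8 and 128.5 TPM in libraries WT 1 and WT 2, then 72.8 and 55.8 in KO 1 and KO 2. P4ha2 measured 30.03 and 34.7 TPM in libraries WT 1 and WT 2, then 3.72 and 4.11 in KO 1 and KO 2. The summed level of the 3 alpha subunit genes, with P4ha3 adding at most 0.13 TPM, was 165 and 163 TPM in WT and 76.5 and 60.03 in KO. P4ha2 made up 18.2% and 21.3% of that sum in the WT libraries against 4.86% and 6.85% in the KO libraries. The ratio of P4ha1 to P4ha2 was accordingly 4.49 and 3.70 in WT and 19.6 and 13.6 in KO.

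Among the lysyl hydroxylases Plod2 led in WT cells and Plod3 in KO cells. The sum over Plod1, Plod2 and Plod3 was 108 and 107 TPM in WT and 75.5 and 60.3 in KO. The share of Plod2 was 52.7% and 54.5% in the WT libraries against 34.7% and 35.4% in the KO libraries. The share of Plod3 was 42.7% and 40.1% in WT and 55.02% and 54.7% in KO, and that of Plod1 was 4.65% and 5.31% in WT and 10.3% and 9.93% in KO. These shares follow from the levels given above and are not separate evidence. All 7 genes together summed to 274 and 271 TPM in WT and to 153 and 122 in KO.

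**Figure D3:**
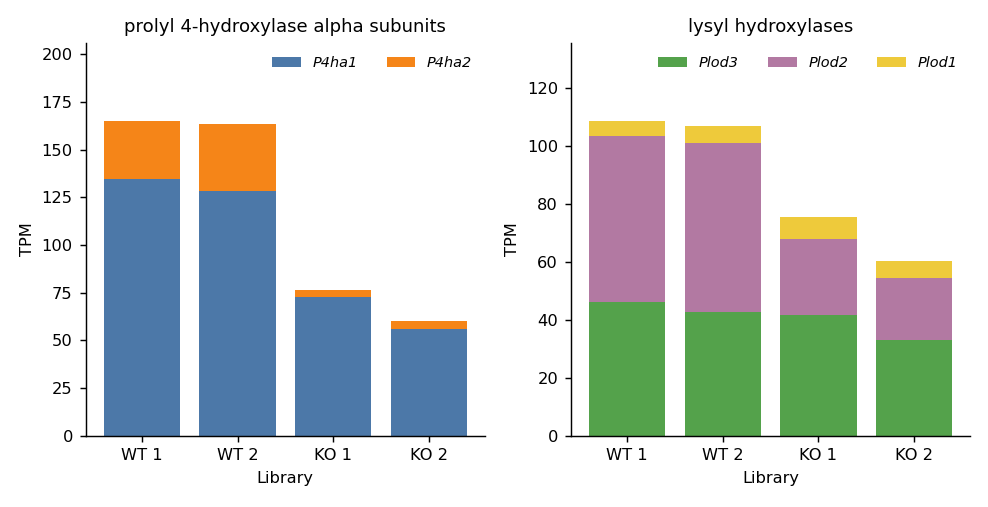
Stacked levels in TPM (vertical axes from 0) of the prolyl 4-hydroxylase alpha subunit genes, left, and the lysyl hydroxylase genes, right, with 1 bar per library. The P4ha2 segment shrinks from 30.03 and 34.7 TPM in WT to 3.72 and 4.11 in KO, and the Plod2 segment is the larger one in WT and smaller than Plod3 in KO.

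The mean effective length of a gene's transcripts, a readout that the choice of genes did not use, was computed from the expected count and FPKM. RSEM weights it by the isoforms it assigns, so it moves when their mix moves. For P4ha1 it was 3077 and 3056 bases in the WT libraries and 2990 and 3004 in the KO libraries. The KO mean differed from the WT mean by -2.27%, more than the spread within either genotype. The lengths of its coding transcripts in GENCODE M21 range from 2387 to 4043 bases. That range is no direct frame, because the annotation behind the deposited values was not given. The lengths computed for P4ha2, Plod1 and Plod2 exceeded their longest coding transcripts in GENCODE M21 (2263, 3243 and 3663 bases). For P4ha2 (2289 ± 1.27 bases in WT, 2288 ± 1.77 in KO, SD, n = 2 each) and Plod2 (3690 ± 1.27 and 3689 ± 7.50) the KO means differed from the WT means by -0.0677% and -0.0244%. For Plod1 the 4 libraries lay within 0.198% of each other and for Plod3 within 0.952%. For Loxl2 the libraries lay within 1.77% of each other. Rounding of the low FPKM values could account for up to 1.92% in a single library. For Loxl3 they lay within 2.96%, with a rounding of up to 2.17% in a single library, and both ends of that range were KO libraries. Lengths from TPM put KO 1 and KO 2 in the reverse order (4104 and 4078 bases, against 4010 and 4130 from FPKM). No difference between them is read from this. These lengths are given as a description of the 4 libraries, and no test was made.

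The genes most like each member were found by the distance between log2 CPM values centred over the 4 libraries, among about 10064 genes that averaged 5 CPM or more. The pair of members closest to each other was P4ha1 and Plod2 (distance 0.23), followed by Plod1 and Loxl2 (0.43). P4ha2 was far from the other members, with Plod2 its nearest at 1.77. Nearest to P4ha1 over all genes were Bbs5 (distance 0.05, log2 fold change -1.23) and Cipc (0.05, -1.14). Nearest to P4ha2 were Adamtsl5 (0.10, -3.15), a gene of an ADAMTS-like matrix protein, and Esrp2 (0.14, -3.32), a gene of a splicing regulator. Nearest to Plod2 were Pgk1 (0.06, -1.41), the phosphoglycerate kinase of glycolysis, and Ppme1 (0.08, -1.31). Sympk and Taok3 were nearest to Plod3, Sgta and Mfap1b to Plod1, Pomgnt1 and Lmo4 to Loxl2, and Cacnb1 and Fuz to Loxl3. These distances rest on 4 libraries only. They use the same values as the contrast, so the like fold changes of neighbours follow from how they were picked.

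The rest of the collagen pathway was read from 8 lists of 50 genes, without the 7 enzymes, of which 49 were in the table and 31 were tested. Of these 5 rose, 4 fell and 22 did not pass, that is 9 of 31, where 13.4% of all genes tested were called in either direction. These lists too were chosen with earlier results of these data known, so nothing is read from that share. Their median log2 fold change was 0.15, against 0.02 over all genes. P4hb encodes the beta subunit of prolyl 4-hydroxylase, which is also the abundant protein disulfide isomerase. It fell from 783 and 819 CPM in the WT libraries to 467 and 351 in the KO libraries (-0.97 ± 0.18 SE on the log2 scale, adjusted p = 0.0283, edgeR). That call was lost without WT 1 (adjusted p = 0.108), without WT 2 (0.150) and with limma on log2(TPM + 1) (0.0541). On the TPM scale P4hb was 3.45 and 3.53 times the summed alpha subunits in WT and 4.83 and 4.33 times in KO, so that the ratio was higher in both KO libraries while P4hb and the alpha subunits were each lower. P4ha3 and the other lysyl oxidase genes, Lox, Loxl1 and Loxl4, had at most 3 expected counts in any library and were not tested.

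Of the prolyl 3-hydroxylase family and its partners, 0 of 5 tested genes passed (edgeR, with 0 at an unadjusted p under 0.05). The abundant gene of this list, Ppib, encodes cyclophilin B. It had means of 151 ± 5.79 CPM for WT and 166 ± 17.2 for KO (adjusted p = 0.495, edgeR). The galactosyltransferase gene Colgalt1, whose enzyme adds sugar to hydroxylysine, rose from 62.0 and 60.7 CPM in WT to 110.4 and 119 in KO (0.90 ± 0.11 SE, adjusted p = 0.0101, and 0.0693 without WT 1 or 0.0853 without WT 2). It thus moved against the hydroxylases P4ha1, P4ha2 and Plod2 in the same libraries. Among 7 tested genes of collagen folding and export 2 fell. Sec24d, a cargo subunit of the COPII coat that carries procollagen, fell from 40.7 and 41.8 CPM in WT to 18.01 and 20.4 in KO (-1.10 ± 0.14 SE, adjusted p = 0.0101). Sparc, a collagen-binding protein gene, had 24 and 36 expected counts in WT and 4 and 1 in KO (adjusted p = 0.0268, and 0.0697 without WT 2). Serpinh1, the gene of the collagen chaperone HSP47, was nearly absent, with at most 1 expected count in a library.

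Among 5 tested genes of procollagen proteinases and their enhancers 2 rose and 1 fell. Bmp1, which cuts the C-propeptide, rose from 1.23 and 1.83 CPM in WT to 8.08 and 5.32 in KO (2.13 ± 0.37 SE, adjusted p = 0.0239, and 0.0972 without WT 1). Adamts14, an N-propeptidase, fell from 7.39 and 8.55 CPM to 2.14 and 2.64 (-1.74 ± 0.27 SE, adjusted p = 0.0171, 0.0600 without WT 1 and 0.122 without WT 2). Adamts3, another N-propeptidase, had 0 and 1 expected counts in WT and 27 and 16 in KO (adjusted p = 0.0251, 0.0716 without WT 1, and 0.0981 with limma on log2(TPM + 1)). Of 6 tested genes of collagen breakdown and proline recovery 2 rose, Mmp8, the neutrophil collagenase, with 5 and 1 expected counts in WT and 37 and 182 in KO (adjusted p = 0.0398), and Ctsk, the cathepsin K gene, with 3 and 1 in WT and 13 and 25 in KO (adjusted p = 0.0496). Leaving out WT 1 ended both calls (adjusted p = 0.104 for Mmp8 and 0.0967 for Ctsk), as did leaving out WT 2 (0.182 and 0.242). Both calls were also lost under other methods. For Mmp8 this was limma on log2(TPM + 1) (adjusted p = 0.0775). For Ctsk it was DESeq2 (0.0830), no filter on low counts (0.0518) and RLE in place of TMM factors in edgeR (0.05 after rounding). Myeloid markers, which rose beside them, include Lyz2 (12.7 CPM in KO 1, 64.3 in KO 2) and Itgax (9.34 and 12.6), and their part in these changes was not tested. Of 6 tested collagen receptor genes 0 passed (edgeR; 2 had an unadjusted p under 0.05), with Itgb1 at a log2 fold change of 0.30 and Ddr1 at -0.41. The smallest p among them was that of Itga1, the gene of an integrin alpha chain that binds collagen, with 3 and 1 expected counts in WT and 12 and 27 in KO (adjusted p = 0.0560). Its adjusted p was 0.0027 when KO 1 was left out, 0.0487 when KO 2 was, 0.0993 and 0.245 when WT 1 or WT 2 was, and 0.0167 with the replicate block.

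**Figure D4:**
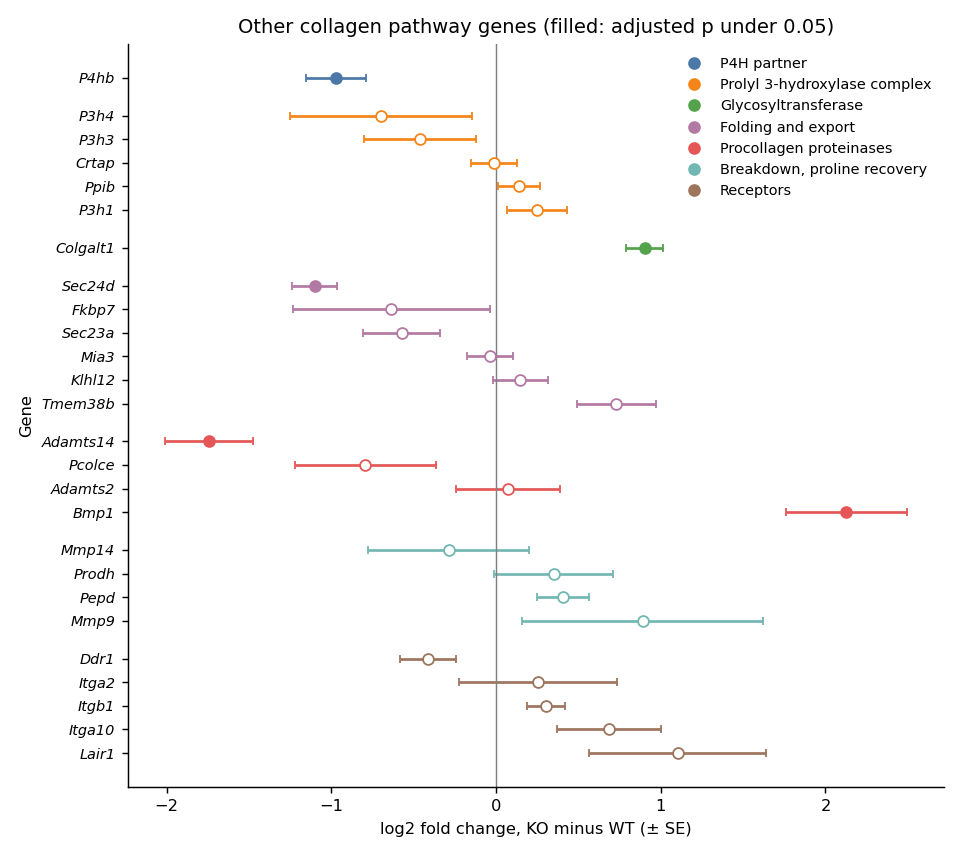
Log2 fold change of KO against WT with SE for 26 other collagen pathway genes, grouped by role in colours, with filled points for an adjusted p under 0.05. The 5 tested genes with under 10 expected counts in a genotype are left out, namely Sparc, Adamts3, Mmp8, Ctsk and Itga1. Of these all but Itga1 had an adjusted p under 0.05. P4hb, Sec24d and Adamts14 lie to the left of 0, Colgalt1 and Bmp1 to the right.

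Transcripts of the collagen chains, the classical substrates of these enzymes, were scarce. Protein and other substrates were not measured. Of 41 collagen chain genes listed, 12 were tested. The summed level of all 41 was 10.6 to 12.6 TPM in WT and 10.6 to 15.03 in KO, against 569 and 576 TPM of P4hb alone in WT. The chains with the highest mean were Col11a2 (2.31 TPM), Col18a1 (1.99), Col15a1 (1.84) and Col20a1 (1.31), and none of these passed the test. Col18a1 differed between the KO mice, with 2.08 CPM in KO 1 against 10.4 in KO 2, and its log2 fold change was 1.16 without KO 1 and -1.17 without KO 2. The chains that passed, Col1a1, Col5a1 and Col4a1, were all lower in KO and are named after their values were seen. Col1a1 fell from 51 and 56 expected counts in WT to 13 and 20 in KO (adjusted p = 0.0419) and Col5a1 from 64 and 74.25 to 11.01 and 24 (adjusted p = 0.0447). Col4a1 had 20 and 24 counts in WT and 0 and 3 in KO (adjusted p = 0.0450). In that order, the adjusted p of these 3 genes was 0.159, 0.099 and 0.0619 without WT 1, 0.238, 0.169 and 0.0965 without WT 2, and 0.0523, 0.0555 and 0.101 with limma on log2(TPM + 1).

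A list of other enzymes of the 2-oxoglutarate oxygenase family, not the whole family, was set beside the hydroxylases. It was drawn up with earlier results of these data known, so nothing is read from its share of calls. Of 12 tested 0 rose and 4 fell, where 8.23% of all genes tested fell, and their median log2 fold change was -0.39. Asph, which encodes the aspartyl hydroxylase of the endoplasmic reticulum, fell from 24.2 and 25.6 CPM in WT to 4.32 and 5.12 in KO (-2.40 ± 0.18 SE, adjusted p = 0.00345). Jmjd6, which encodes a nuclear oxygenase that hydroxylates lysine in splicing proteins, fell from 142 and 150.1 CPM to 81.6 and 65.3 (-0.99 ± 0.14 SE, adjusted p = 0.0153, and 0.0542 without WT 2). The others were the HIF prolyl hydroxylase genes Egln1 (-1.47, adjusted p = 0.00415) and Egln3 (-2.06, adjusted p = 0.0141). The remaining 8, among them P4htm (0.12), the transmembrane prolyl 4-hydroxylase gene, did not pass. Of 21 HIF target genes outside the collagen lists 18 fell and 0 rose, with a median log2 fold change of -1.36. That fall was known from these libraries before the list was drawn up. Of the genes of ascorbate transporters, which supply the cofactor, 0 of 2 passed (edgeR; 1 had an unadjusted p under 0.05), with Slc23a2 at a log2 fold change of 0.40.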

How the data were processed

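RNA sequencing of 4 Th17 cultures (2 PRAK KO, 2 WT mice) was analysed from 1 table. Expected counts per gene (69.4% whole, not normalised), FPKM and TPM were deposited by the authors, per the file headers. Build GRCm38.p6, RSEM 1.2.12, HISAT2 2.0.4 and Bowtie2 2.2.5 are named without roles, per the submitters' processing notes. Strand or annotation release was not given in the sources used here.

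Expected counts were rounded, filtered with filterByExpr (minimum count 10, minimum total 15; 12680 genes kept, 5241 removed) and scaled with TMM factors. KO was compared with WT with edgeR 4.0.16 under R 4.3.3 (quasi-likelihood test, robust dispersions), with Benjamini-Hochberg adjustment over all genes tested and a threshold of 0.05. The steps after the filter were tested on simulated data. Each simulated gene took the dispersion typical of its level, and fewer genes were changed than were called in the real data. Under those settings the steps recovered 55 of 100 genes with a log2 fold change of 1 in either direction and 92 of 100 with 2. There were 6 false calls. Recovery in the real data may differ. Each SE was computed from the log2 fold change and the F statistic. CPM are TMM-scaled. Effective length was the count divided by FPKM and by the library total. Genes were matched by ID to RefSeq for coordinates (17787 of 17921).

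The members and the lists were chosen with earlier results of these data known. Named genes are Mapkapk5, the members, P4hb, up to 4 genes per list with the smallest p, the 2 genes most like each member, and the 4 tested collagen chains with the highest TPM. Markers and others beyond this were named after their values were seen. Alternatives were DESeq2 1.42.0, RLE factors, library size alone, no filter, limma 3.58.1 on log2(TPM + 1), each library left out, and a replicate block. Nothing in the labels ties the mouse numbers of the genotypes to a shared litter or day. Precision is limited by 2 mice per genotype and, for low genes, by depth.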

Additional observations from a re-analysis of the deposited data

How the results depend on the processing

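As a description, since the 7 enzyme genes were chosen with this contrast known, P4ha1, P4ha2 and Plod2 were on the same side of the threshold under all 10 alternatives, as were Plod1, Loxl2 and Loxl3, and these refits of the same libraries are no independent support. Plod3 passed it only without KO 1, so the members lower in KO numbered 3 to 4 over the fits without 1 library. Signs turned when a KO library was left out: over the fits without 1 library the log2 fold change ranged from -0.48 to 0.78 for Loxl3, -0.45 to 1.58 for Mmp9, -0.084 to 0.37 for Slc23a1, -1.17 to 1.16 for Col18a1 and -0.0085 to 0.75 for Aldh18a1. Over the fits without 1 library, other collagen pathway genes called higher ranged from 0 to 9 and lower from 1 to 9, and all genes called higher ranged from 182 to 2836 and lower from 385 to 3058. With limma on log2(TPM + 1) 3 other collagen pathway genes were higher. DESeq2 called 988 genes higher in place of 652. Without TMM factors 918 genes were higher and 864 lower, and the median over all genes went from 0.02 to 0.12 (log2). That scaling turned the sign of none of the 7 enzyme genes. With the replicate block 1338 genes were higher and 1597 lower. The mouse numbers name separate animals, and nothing in the labels pairs them across genotypes. The differences between mouse 1 and mouse 2 in WT and in KO correlated at r = 0.175 across genes. That value does not settle whether mice of the same number shared a litter or day. The block changed no call of the 7 enzyme genes. Effective lengths from TPM lay within the spread between libraries of those from FPKM. Low counts limit Loxl2, Loxl3 and the collagen chains.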
